A study of Mus musculus with 40 samples.

Results

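The genes described are the 9 cyclin-dependent kinase (CDK) inhibitor and cyclin D genes Cdkn1b, Cdkn1c, Cdkn2a, Cdkn2b, Cdkn2c, Cdkn2d, Ccnd1, Ccnd2 and Ccnd3, chosen by symbol from the 53465 gene rows of an RNA-seq count table. All 9 passed the filter on low counts. The organoids were grown from urothelium of the mouse bladder. They were wild type (WT) or carried the label of a double knockout (dKO) of Kmt2c and Kmt2d, the genes of a pair of histone H3K4 methyltransferases that act at enhancers. Each genotype received either the solvent DMSO or MI-503, an inhibitor of the contact between menin and KMT2A, at 1 µM for 4 days. Each of the 4 groups had 2 libraries of polyA RNA. All groups were grown with EGF, Noggin, R-spondin, the ROCK inhibitor Y-27632 and A83-01, an inhibitor of the TGF-beta type I receptor kinase. No label used here says how the knockout was made, from how many clones, or whether the libraries of a group were separate cultures. The p-values therefore measure only the spread between these libraries, which may be technical.

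D cyclins bind and activate CDK4 and CDK6, which phosphorylate the retinoblastoma protein RB and release E2F transcription factors, and E2F factors then turn on genes of DNA synthesis. INK4 inhibitors, encoded by Cdkn2a, Cdkn2b, Cdkn2c and Cdkn2d, bind CDK4 and CDK6 and keep D cyclins off them, whereas the CIP/KIP inhibitors, encoded by Cdkn1a, Cdkn1b and Cdkn1c, bind whole cyclin-CDK complexes and inhibit CDK2. In endocrine cells, menin and KMT2A are known to keep Cdkn1b and Cdkn2c expressed, and in human bladder cancer CDKN2A is often deleted and CCND1 often amplified.

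Libraries held 58113705 to 68571176 counts. Levels are given as CPM, counts scaled to a common library total, after scaling by trimmed mean of M values (TMM). Kmt2c averaged 111 CPM in WT DMSO and 53.8 in labelled dKO DMSO, and 61.0 in WT MI-503 and 28.2 in labelled dKO MI-503. Its mean was thus lower with MI-503 as well as in labelled dKO, and WT MI-503 lay near labelled dKO DMSO. Kmt2d was higher in labelled dKO, both in DMSO (122 against 91.0 CPM) and in MI-503 (95.3 against 70.8). The libraries are therefore called labelled dKO throughout. Counts of a whole gene do not show the loss of single exons. Endoplasmic reticulum chaperone genes took 3.68% and 3.95% of the counts in the WT DMSO libraries and 0.420 to 0.547% in the others. Of 16 urothelial markers 15 were tested, and their summed level was 12515 to 13703 CPM in WT DMSO, 18377 to 19354 in WT MI-503, 20618 to 23023 in labelled dKO DMSO and 20709 to 23264 in labelled dKO MI-503. The sum follows its most abundant keratin genes and not the list: with MI-503 in WT 6 of these markers rose and 6 fell (median log2 fold change -0.017), with means going from 3974 to 7470 CPM for Krt5 and from 1311 to 4989 for Krt7, but from 456 to 235 for Trp63 and from 1934 to 1458 for Krt14. In labelled dKO against WT in DMSO 9 were higher and 4 lower. No endothelial marker of 5 passed the filter. The 6 immune markers summed to 13.1 to 18.6 CPM in the DMSO groups, 160 to 166 in WT MI-503 and 61.2 to 69.9 in labelled dKO MI-503, almost all of it Cd68 (17.5 CPM in WT DMSO and 163 in WT MI-503), with Lyz2 at 0. The 10 fibroblast and smooth muscle markers summed to 4.49 to 5.59 CPM in the DMSO groups, 41.8 to 44.0 in WT MI-503 and 15.3 to 16.0 in labelled dKO MI-503. Of this, Acta2 averaged 3.20 CPM with DMSO and 40.8 with MI-503 in WT, and 0.988 with DMSO and 7.14 with MI-503 in labelled dKO cells. Pdgfra ran the other way between genotypes, at 1.08 and 1.35 CPM in WT and 3.70 and 7.84 in labelled dKO cells, and Col1a2, Dcn and Lum were at 0. The 5 neural markers summed to 0.490 to 1.70 CPM over all libraries. These values move with the contrasts below, and the part of cell makeup in the results was not tested; in bulk RNA, fewer cells of a type and less RNA per cell cannot be told apart. Leaving the chaperone genes out of the fit, an alternative added after the data were seen, changed no call of the 9 genes. Because TMM already trims genes of extreme change, that fit could hardly differ, and it does not test the scaling.

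Genes past an adjusted p of 0.05 in edgeR's two-sided quasi-likelihood test are called risen or fallen. In DMSO, 5 of the 9 genes were higher and 4 lower in the labelled dKO libraries than in WT, where 65.4% of the 16921 genes tested passed. With MI-503 in WT, 7 rose and 1 fell, and Cdkn2c did not pass (background 69.0%, with 35.2% risen). With MI-503 in labelled dKO cells, 6 rose and 1 fell, and Cdkn2a and Cdkn2b did not pass (background 55.6%, with 29.1% risen). The difference between these drug responses passed for 6 of the 9, against 46.8% of all genes. The labelled dKO response was the more positive for Cdkn1b and Cdkn1c and the more negative for Cdkn2a, Cdkn2b, Ccnd2 and Ccnd3, although the Cdkn2a and Ccnd3 calls each rested on single libraries. In MI-503, 3 genes were higher and 4 lower in labelled dKO than in WT (background 55.1%). The libraries of the groups compared did not overlap for 9 genes in the DMSO genotype contrast (all genes 81.1%) and 7 in the MI-503 genotype contrast (77.1%). For the drug they did not overlap for 8 in WT (83.4%) and 7 in labelled dKO cells (75.1%). Cdkn1c, Cdkn2a, Ccnd1 and Ccnd2 were lower in labelled dKO in both media, as were 19.3% of all genes. Cdkn1b, Cdkn1c, Cdkn2d, Ccnd1 and Ccnd2 passed in both genotype contrasts and both drug contrasts, as did 25.6%. These counts are read against the share of tested genes that passed in the same contrast. The median size of the members' log2 fold changes was 0.55 for the genotype in DMSO (all genes tested 0.52), 0.76 for MI-503 in WT (0.63) and 0.47 for MI-503 in labelled dKO cells (0.40). For the difference of responses it was 0.45 (0.45), and for the genotype in MI-503 it was 1.03 (0.35). The members' median was thus farthest above that of all genes in the genotype contrast in MI-503, where Cdkn1b, Cdkn2a, Cdkn2c, Cdkn2d and Ccnd2 each differed by more than 1 on the log2 scale.

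**Figure D1:**
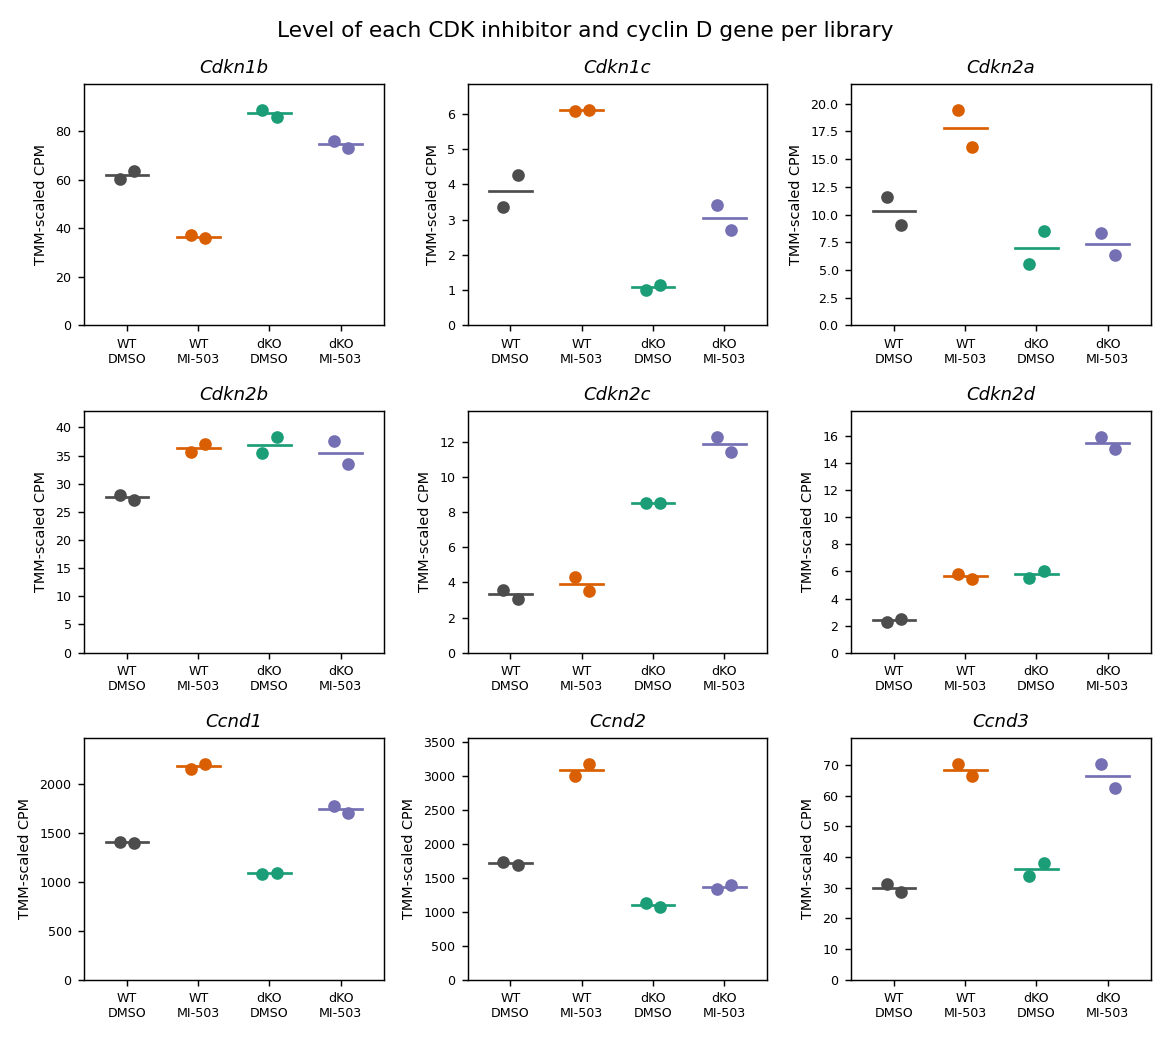
Level of each of the 9 genes (TMM-scaled CPM, axis from 0) in the 2 libraries (points) of each group, with the group mean as a line; dKO stands for libraries labelled dKO. Cdkn1b was lowest in WT MI-503 (35.8 and 37.3 CPM), Cdkn2d was highest in labelled dKO MI-503 (15.0 and 16.0 CPM), and Ccnd2 was highest in WT MI-503 (2999.6 and 3173 CPM).

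**Figure D2:**
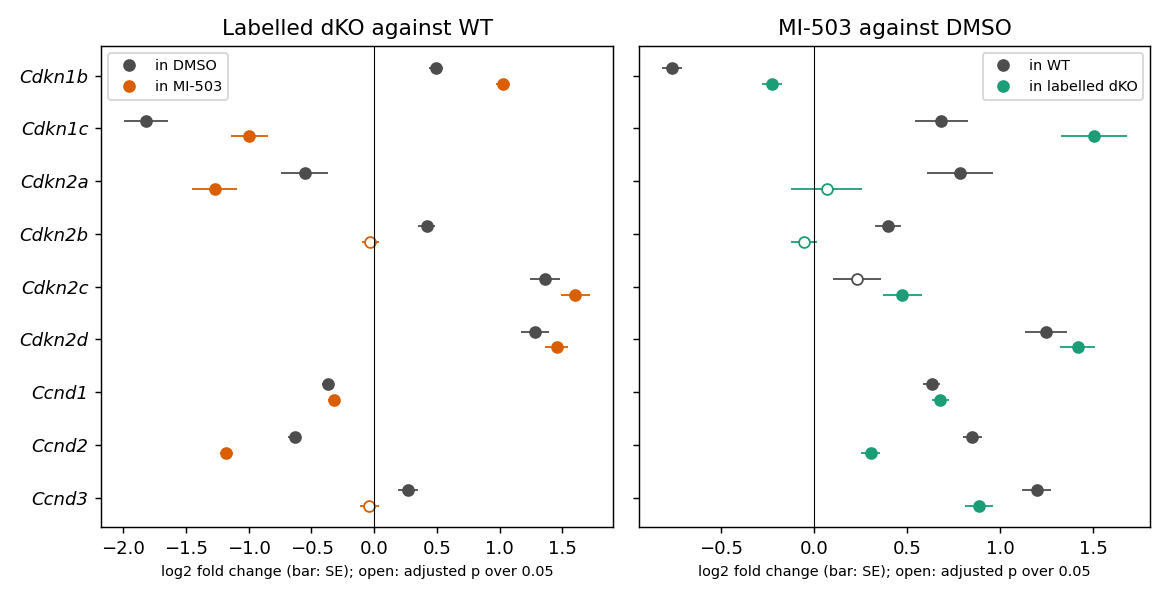
Log2 fold changes (points) with standard errors (bars) of labelled dKO against WT in each medium (left) and of MI-503 against DMSO in each genotype (right); open points did not pass. Cdkn1b lies below 0 for MI-503 in both genotypes, and Cdkn2c and Cdkn2d lie above 1 for the genotype in both media.

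Cdkn1b encodes p27, the CIP/KIP inhibitor that accumulates in resting cells (ENSMUSG00000003031, chromosome 6, 134920401 to 134925525; positions here and below are RefSeq, GRCm38.p6). It was the 1 member that fell with MI-503, and it fell in both genotypes, as did 20.4% of all genes. Its level was 60.4 and 63.8 CPM in WT DMSO, 37.3 and 35.8 in WT MI-503, 88.9 and 86.0 in labelled dKO DMSO, and 76.1 and 73.1 in labelled dKO MI-503. No groups overlapped, and the order from low to high was WT MI-503, WT DMSO, labelled dKO MI-503, labelled dKO DMSO, with every neighbouring pair past the threshold. With MI-503 it fell 1.70-fold in WT (log2 fold change -0.76, SE 0.055, adjusted p = 1.92e-08) and 1.17-fold in labelled dKO cells (-0.23, SE 0.053, adjusted p = 0.00217). The responses differed by 0.54 (SE 0.076, adjusted p = 5.71e-05). The labelled dKO libraries were 1.41-fold above WT in DMSO (adjusted p = 1.83e-06) and 2.04-fold above WT in MI-503 (adjusted p = 1.9e-09). The noncoding gene Lockd lies 3567 bases from Cdkn1b and was at 0.635 and 0.694 CPM in WT DMSO and 3.09 and 2.48 in labelled dKO DMSO. It was higher in labelled dKO too (2.06, adjusted p = 4.11e-07), but with MI-503 it rose in WT (0.62, adjusted p = 0.0235) where Cdkn1b fell.

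Cdkn1c, which encodes the CIP/KIP inhibitor p57 and lies in the imprinted Kcnq1 domain (ENSMUSG00000037664, chromosome 7, 143458339 to 143461059), went the other way from Cdkn1b in every contrast but the difference of drug responses. Its level was 3.35 and 4.25 CPM in WT DMSO, 6.08 and 6.12 in WT MI-503, 1.02 and 1.14 in labelled dKO DMSO, and 3.41 and 2.69 in labelled dKO MI-503. The labelled dKO DMSO libraries were the lowest and stood apart from all others, at 67 and 81 counts. Against WT they were 3.52-fold lower (log2 fold change -1.82, SE 0.175, adjusted p = 5.94e-07). In MI-503 the gap was 1.99-fold (-0.99, SE 0.146, adjusted p = 5.69e-05). With MI-503 it rose 1.60-fold in WT (0.68, SE 0.144, adjusted p = 0.000757) and 2.84-fold in labelled dKO cells (log2 SE 0.179, adjusted p = 7.12e-06), a difference of 0.82 (SE 0.231, adjusted p = 0.00987). WT DMSO and labelled dKO MI-503, neighbours in the order of levels, overlapped and did not differ past the threshold (-0.31, 95% interval -0.64 to 0.018, adjusted p = 0.0829).

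Other genes of that imprinted domain did not all follow Cdkn1c. Slc22a18, a transporter gene 12667 bases away, rose with MI-503 on the log2 scale by 1.79 in WT and by 0.98 in labelled dKO cells, and Cd81, which encodes a tetraspanin, rose in both as well (0.93 and 0.90). Kcnq1ot1, the noncoding RNA that silences the domain in cis on the paternal copy, fell with MI-503 in WT from 9.47 and 10.5 CPM to 4.75 and 3.66 (-1.24, adjusted p = 3.59e-06) and in labelled dKO cells by 0.58 on the log2 scale (adjusted p = 0.00473). In the genotype contrast in DMSO Kcnq1ot1 was lower too (-0.69, adjusted p = 0.000587), there in the same direction as Cdkn1c. Group means in DMSO were also lower in labelled dKO than in WT for Cd81 (148 against 224 CPM), Nap1l4 (84.2 against 117) and Phlda2 (11.2 against 19.2). The same held for Slc22a18 (6.33 against 7.34 CPM). Ascl2 and H19 had lower means too, on few counts. Ascl2 had 2 and 3 counts in labelled dKO DMSO against 21 and 18 in WT DMSO, and H19 had 17 and 16 against 22 and 18. Igf2, at 2 and 2 counts against 4 and 1, was too low to give a direction, and its libraries overlapped. Tssc4 was higher (8.74 against 5.06 CPM). Kcnq1, which encodes a potassium channel, was 1.66 and 1.65 CPM in WT DMSO, 26.2 and 25.4 in WT MI-503, 6.58 and 6.95 in labelled dKO DMSO, and 6.28 and 5.95 in labelled dKO MI-503. Kcnq1 rose with MI-503 in WT (3.96, adjusted p = 7.18e-13) and did not pass in labelled dKO cells (-0.15, adjusted p = 0.176), and it was higher in labelled dKO in DMSO (2.03), where Cdkn1c was lower.

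Among the INK4 genes, Cdkn2c and Cdkn2d were higher in the labelled dKO libraries in both media, as were Cdkn1b and 16.3% of all genes. Cdkn2c encodes p18 (ENSMUSG00000028551, chromosome 4, 109660876 to 109666756) and Cdkn2d encodes p19INK4d (ENSMUSG00000096472, chromosome 9, 21288459 to 21291421). The RefSeq promoter table, which holds 250 bases before to 50 after each start, had 9 windows for 6 of the 9 genes; Cdkn1c, Ccnd1 and Ccnd2 had no entry. The upstream window of Cdkn2c and the window of Cdkn2d are shown because these genes rose together in labelled dKO libraries, and both windows of Cdkn2a because each belongs to a different protein of that gene. Capitals mark matches to the E2F motifs searched, and all windows are on the minus strand of GRCm38.p6 and read 5′ to 3′.
Cdkn2c, chr4:109666707-109667006: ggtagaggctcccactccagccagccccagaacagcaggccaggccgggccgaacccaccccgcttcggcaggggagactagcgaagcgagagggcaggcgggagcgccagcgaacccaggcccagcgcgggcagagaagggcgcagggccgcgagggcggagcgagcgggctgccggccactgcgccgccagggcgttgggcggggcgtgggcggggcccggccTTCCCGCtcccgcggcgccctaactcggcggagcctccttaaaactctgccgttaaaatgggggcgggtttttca
Cdkn2d, chr9:21291160-21291459: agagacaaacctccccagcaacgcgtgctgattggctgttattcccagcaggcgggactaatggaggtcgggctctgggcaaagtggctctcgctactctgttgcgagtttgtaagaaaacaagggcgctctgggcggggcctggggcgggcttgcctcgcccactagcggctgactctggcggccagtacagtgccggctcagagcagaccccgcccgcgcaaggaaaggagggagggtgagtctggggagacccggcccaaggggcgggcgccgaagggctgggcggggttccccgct
Cdkn2a ARF start, chr4:89294570-89294869: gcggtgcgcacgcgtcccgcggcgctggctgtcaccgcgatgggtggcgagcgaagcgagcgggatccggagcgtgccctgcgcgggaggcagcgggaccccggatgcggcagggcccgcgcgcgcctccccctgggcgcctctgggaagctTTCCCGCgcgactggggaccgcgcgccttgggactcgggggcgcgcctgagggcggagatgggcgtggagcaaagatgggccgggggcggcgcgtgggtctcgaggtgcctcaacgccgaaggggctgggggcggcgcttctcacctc
Cdkn2a INK4a start, chr4:89282143-89282442: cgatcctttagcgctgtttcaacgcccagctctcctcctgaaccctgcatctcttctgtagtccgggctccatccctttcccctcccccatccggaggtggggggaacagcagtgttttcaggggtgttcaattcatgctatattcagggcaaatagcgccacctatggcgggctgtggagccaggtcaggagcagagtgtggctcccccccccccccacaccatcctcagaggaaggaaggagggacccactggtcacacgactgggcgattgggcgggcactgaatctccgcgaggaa

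On both strands, TTGGCGC was the first form of the E2F motif searched, TTGCCGC was the second form, TTCGCGC was the third form and TTCCCGC was the fourth. At least 1 of these forms stood in 9.57% of 32851 promoter windows. Of the 9 windows, 2 held such a motif, each 1 TTCCCGC: the upstream window of Cdkn2c at position -25 from the start, and the ARF window of Cdkn2a at position -98. The same windows held 33 and 45 CG dinucleotides, against a median of 7 in all windows, while the Cdkn2d window held 22 and the INK4a window 12. A FOXO motif, GTAAACA, stood at position -243 of the upstream Ccnd3 window (3.65% of windows hold one), and an E-box, CACGTG, at position 34 of the downstream Cdkn2c window (7.15%). AP-1 motifs (TGANTCA) and TATAAA were found in none of the 9, and occur in 7.81% and 13.6% of windows. These are letter matches in windows of fixed length, with no measurement of binding.

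Cdkn2c was at 3.58 and 3.08 CPM in WT DMSO, 4.28 and 3.49 in WT MI-503, 8.55 and 8.55 in labelled dKO DMSO, and 12.3 and 11.4 in labelled dKO MI-503. All 4 labelled dKO libraries were above all 4 WT libraries, by 2.57-fold in DMSO (1.36 on the log2 scale, SE 0.119, adjusted p = 2.2e-07) and 3.04-fold in MI-503 (1.60, SE 0.114, adjusted p = 4.17e-08). With MI-503 it rose in labelled dKO cells (0.47, SE 0.105, adjusted p = 0.00164), and in WT, where the groups overlapped, it did not pass (0.23, 95% interval -0.049 to 0.51, adjusted p = 0.130). The WT result varied with the setting. It passed with library size in place of TMM (0.40, adjusted p = 0.0133), with no filter (0.30, adjusted p = 0.0465) and with a stricter filter (0.30, adjusted p = 0.0498). The log2 fold change was also higher without WT MI-503 replicate 2 (0.35), a fit that leaves 1 library in that group. Over all other settings it ran from 0.071 to 0.40. The difference between the drug responses did not pass (0.24, 95% interval -0.11 to 0.60, adjusted p = 0.257). The neighbouring gene Faf1, 9871 bases away, was lower in labelled dKO in DMSO (-0.52, adjusted p = 1.28e-06) and fell with MI-503 in labelled dKO cells (-0.48, adjusted p = 5.54e-06), both opposite to Cdkn2c.

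Cdkn2d was at 2.30 and 2.46 CPM in WT DMSO, 5.85 and 5.45 in WT MI-503, 5.55 and 6.06 in labelled dKO DMSO, and 16.0 and 15.0 in labelled dKO MI-503. The WT DMSO pair was the lowest and the labelled dKO MI-503 pair the highest of the 4, with the other two groups overlapping between them (0.038, 95% interval -0.18 to 0.25, adjusted p = 0.755). It rose with MI-503 2.38-fold in WT (log2 fold change 1.25, SE 0.113, adjusted p = 2.25e-07) and 2.67-fold in labelled dKO cells (1.42, SE 0.094, adjusted p = 2.35e-08), and these responses did not differ past the threshold (0.17, 95% interval -0.15 to 0.49, adjusted p = 0.385). Labelled dKO exceeded WT 2.44-fold in DMSO (1.29, SE 0.112, adjusted p = 2.03e-07) and 2.74-fold in MI-503 (1.46, SE 0.094, adjusted p = 1.6e-08). Kri1, 490 bases from Cdkn2d, was also higher in labelled dKO in DMSO (0.30, adjusted p = 0.00161) but fell with MI-503 in WT (-0.75, adjusted p = 4.25e-07). Ap1m2, 3194 bases away on the other side, had higher group means with MI-503 in both genotypes, as Cdkn2d did. It averaged 63.7 CPM in WT DMSO and 85.8 in WT MI-503, and 68.8 and 86.9 in labelled dKO cells. Atg4d, 13622 bases away, had lower means with MI-503 (19.8 and 16.1 CPM in WT, 21.6 and 18.4 in labelled dKO).

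Cdkn2a encodes both the INK4 inhibitor p16 and, from another start and reading frame, ARF, which binds MDM2 and stabilises p53 (ENSMUSG00000044303, chromosome 4, 89274473 to 89294619); a count per gene cannot divide the transcripts. It was at 11.6 and 9.06 CPM in WT DMSO, 19.5 and 16.1 in WT MI-503, 5.53 and 8.51 in labelled dKO DMSO, and 8.37 and 6.34 in labelled dKO MI-503. The WT MI-503 libraries were above all others, and the labelled dKO pairs overlapped. It rose with MI-503 in WT 1.72-fold (0.78, SE 0.176, adjusted p = 0.00126) and did not pass in labelled dKO cells (0.066, 95% interval -0.35 to 0.48, adjusted p = 0.796). In MI-503 the labelled dKO libraries were 2.41-fold lower than WT (-1.27, SE 0.181, adjusted p = 4.21e-05). In DMSO they were 1.47-fold lower (-0.55, SE 0.186, adjusted p = 0.0181), a call that ended without WT DMSO replicate 1 (-0.36, adjusted p = 0.173), without labelled dKO DMSO replicate 1 (-0.28, adjusted p = 0.194), with library size in place of TMM (-0.32, adjusted p = 0.155), with DESeq2 (-0.52, adjusted p = 0.121) or with a stricter filter (-0.46, adjusted p = 0.0561). Without labelled dKO DMSO replicate 2 it was -0.90 (adjusted p = 0.000898). The responses differed by -0.72 (SE 0.259, adjusted p = 0.0360), and this too did not hold with DESeq2 (adjusted p = 0.145) or without 1 of 4 libraries: WT DMSO 2 (-0.55), WT MI-503 1 (-0.57), labelled dKO DMSO 2 (-0.37) or labelled dKO MI-503 2 (-0.53), with adjusted p of 0.105 to 0.233.

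Cdkn2b, 11670 bases from Cdkn2a, encodes the INK4 inhibitor p15, a known target of TGF-beta signalling (ENSMUSG00000073802, chromosome 4, 89306289 to 89311032). It was at 28.0 and 27.2 CPM in WT DMSO, 35.7 and 37.0 in WT MI-503, 35.5 and 38.4 in labelled dKO DMSO, and 37.5 and 33.5 in labelled dKO MI-503. The WT DMSO libraries were the lowest and the other 3 groups overlapped. Cdkn2b rose with MI-503 in WT (0.40 on the log2 scale, SE 0.070, adjusted p = 0.000168) and was higher in labelled dKO in DMSO (0.42, SE 0.070, adjusted p = 0.000113; 0.65 with library size in place of TMM). It did not pass for MI-503 in labelled dKO cells (-0.056, 95% interval -0.20 to 0.092, adjusted p = 0.519) or for the genotype in MI-503 (-0.032, 95% interval -0.18 to 0.12, adjusted p = 0.724). The drug responses differed by -0.45 (SE 0.098, adjusted p = 0.00175). The noncoding gene Gm12610, whose annotation overlaps Cdkn2b, had 4 to 16 counts per library and passed in no contrast.

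All 3 D cyclin genes rose with MI-503 in both genotypes, as 21.1% of all genes did, and this held under each scaling tried. Cyclin D1 (Ccnd1, ENSMUSG00000070348, chromosome 7, 144929931 to 144939831), an induced target of growth factor signalling, was at 1411 and 1401 CPM in WT DMSO, 2151 and 2204 in WT MI-503, 1082 and 1094 in labelled dKO DMSO, and 1774 and 1707 in labelled dKO MI-503. No groups overlapped, and every neighbouring pair in the order of levels passed. The rise with MI-503 was 1.55-fold in WT (log2 fold change 0.63, SE 0.045, adjusted p = 2.01e-08) and 1.60-fold in labelled dKO cells (0.68, SE 0.045, adjusted p = 2.69e-08), and the responses did not differ past the threshold (0.047, 95% interval -0.091 to 0.18, adjusted p = 0.593). Labelled dKO libraries were lower than WT in DMSO (-0.37 on the log2 scale, SE 0.045, adjusted p = 6.51e-06; -0.14 with library size in place of TMM) and in MI-503 (-0.32, SE 0.045, adjusted p = 3.59e-05).

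Ccnd2, the gene of cyclin D2 (ENSMUSG00000000184, chromosome 6, 127125162 to 127152188), was at 1732 and 1691 CPM in WT DMSO, 2999.6 and 3173 in WT MI-503, 1132 and 1074 in labelled dKO DMSO, and 1335 and 1389 in labelled dKO MI-503. Every WT library was above every labelled dKO library, and no groups overlapped. The rise with MI-503 was 1.80-fold in WT (log2 fold change 0.85, SE 0.051, adjusted p = 2.78e-09) and 1.23-fold in labelled dKO cells (0.30, SE 0.050, adjusted p = 0.000154), a difference of -0.55 (SE 0.071, adjusted p = 2.74e-05). Labelled dKO libraries were 1.55-fold lower in DMSO (-0.63, SE 0.051, adjusted p = 8.4e-08; -0.40 with library size in place of TMM) and 2.27-fold lower in MI-503 (-1.18, SE 0.051, adjusted p = 2.19e-10). Tigar, a p53 target that lowers glycolysis and lies 15610 bases from Ccnd2, was lower in labelled dKO in DMSO as well (-0.93, adjusted p = 1.52e-09) but fell with MI-503 in WT (-1.28, adjusted p = 5.04e-11) where Ccnd2 rose. The noncoding 9330179D12Rik, which overlaps Ccnd2 in the annotation, had 9 to 72 counts per library and likewise fell with MI-503 in WT (-1.68, adjusted p = 0.000752).

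Cyclin D3 (Ccnd3, ENSMUSG00000034165, chromosome 17, 47505051 to 47599689) had a higher fold change with MI-503 in WT than Ccnd1 or Ccnd2, a comparison between genes that was not tested. Its level was 31.2 and 28.5 CPM in WT DMSO, 70.3 and 66.3 in WT MI-503, 34.0 and 38.0 in labelled dKO DMSO, and 70.4 and 62.6 in labelled dKO MI-503. Both DMSO groups lay below both MI-503 groups, and the MI-503 groups overlapped. It rose with MI-503 2.29-fold in WT (log2 fold change 1.20, SE 0.076, adjusted p = 5.75e-09) and 1.85-fold in labelled dKO cells (0.89, SE 0.075, adjusted p = 2.74e-07). The genotype difference in MI-503 did not pass (-0.038, 95% interval -0.20 to 0.12, adjusted p = 0.694). In DMSO labelled dKO was higher (0.27, SE 0.077, adjusted p = 0.00686; 0.50 with library size in place of TMM), a call lost without WT DMSO replicate 2 (0.20, adjusted p = 0.0786) or labelled dKO DMSO replicate 2 (0.19, adjusted p = 0.0764). The Ccnd3 responses differed by -0.31 (SE 0.106, adjusted p = 0.0289), which was lost without any 1 of WT DMSO 2, WT MI-503 1, labelled dKO DMSO 2 and labelled dKO MI-503 2 (-0.23 to -0.27, adjusted p = 0.109 to 0.126; -0.47 with library size in place of TMM). The neighbouring gene AI661453, 34413 bases from Ccnd3, had higher group means with MI-503 in both genotypes, as Ccnd3 did. It averaged 133 CPM in WT DMSO and 289 in WT MI-503, and 88.6 and 224 in labelled dKO cells. Taf8, 2730 bases away, went the other way in WT (31.7 CPM in DMSO and 22.2 in MI-503). Bysl, a ribosome assembly gene whose annotation overlaps Ccnd3, fell with MI-503 in WT (-0.49, adjusted p = 7.52e-05). No source used here states whether counting used strand, so reads at such overlaps, and those shared with the pseudogene Ccnd3-ps (3 to 14 counts per library), cannot be assigned with certainty.

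The D cyclins together took 0.284% and 0.278% of all counts in WT DMSO, 0.528% and 0.548% in WT MI-503, 0.234% and 0.232% in labelled dKO DMSO, and 0.335% and 0.335% in labelled dKO MI-503. The log2 ratio of Ccnd2 to Ccnd1 counts, which is free of library scaling, was 0.30 and 0.27 in WT DMSO, 0.48 and 0.53 in WT MI-503, 0.066 and -0.027 in labelled dKO DMSO, and -0.41 and -0.30 in labelled dKO MI-503. The ratio was higher in every WT library than in every labelled dKO library, and MI-503 libraries lay above DMSO libraries in WT and below them in labelled dKO. Because the genes differ in length, the ratio itself does not say which RNA was more abundant.

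**Figure D3:**
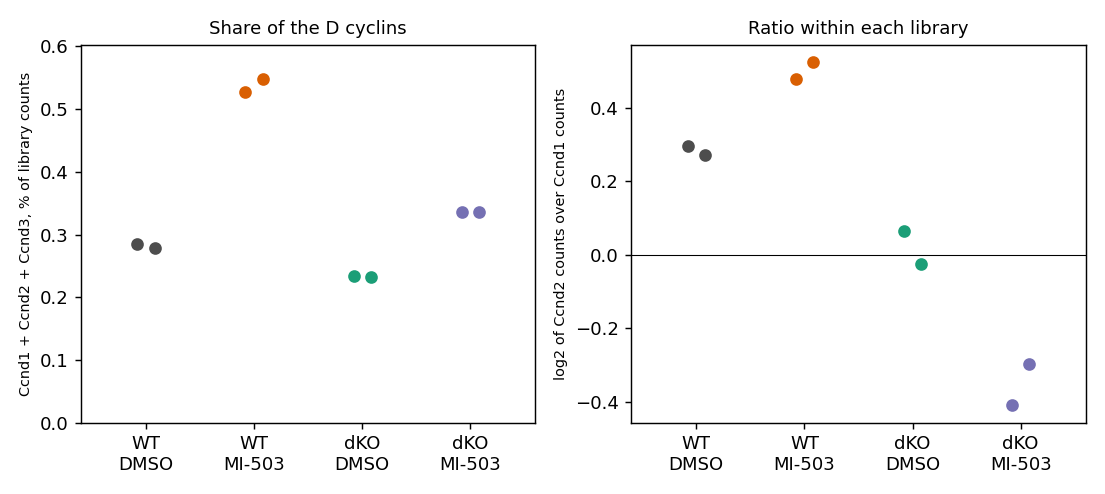
Left, the percentage of each library's counts (points) from Ccnd1, Ccnd2 and Ccnd3 together; right, log2 of Ccnd2 counts over Ccnd1 counts in the same library, where the line at 0 marks equal counts and not equal molecules; dKO stands for libraries labelled dKO. The share was highest in WT MI-503 (0.528% and 0.548%), and the ratio was lowest in labelled dKO MI-503 (-0.41 and -0.30).

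The kinases and regulators that these proteins act on were described from a list of 25 CDK, RB family and E2F genes, all tested. In DMSO 9 were higher and 11 lower in labelled dKO (median log2 fold change 0.031, all genes -0.052). With MI-503, 6 rose and 15 fell in WT (median -0.20) and 12 rose and 5 fell in labelled dKO cells (median 0.11). For the genotype in MI-503, 15 were higher and 2 lower in labelled dKO (median 0.28), or 16 and 2 with library size in place of TMM. Of all genes tested, 26.6% were higher and 28.5% lower there. The first split turned with library size in place of TMM (13 higher and 5 lower, median 0.26), and for MI-503 in WT that scaling gave 8 risen and 10 fallen (median -0.023). Among all genes tested, 29.6% were higher and 35.8% lower for the genotype in DMSO. With MI-503 35.2% of them rose and 33.7% fell in WT, and 29.1% rose and 26.5% fell in labelled dKO cells (median 0.031 in each). Cdk4 was at 251 and 238 CPM in WT DMSO and 293 and 294 in WT MI-503 and rose (0.26, adjusted p = 0.000115), while Cdk6 went from 369 and 369.6 to 262 and 269 CPM and fell (-0.48, adjusted p = 6.12e-07). In labelled dKO cells Cdk6 fell too (-0.27, adjusted p = 0.000219) and Cdk4 did not pass (0.10, adjusted p = 0.0688). Rb1, the gene of RB, stayed between 53.5 and 74.0 CPM in all libraries, and the sign of its response to MI-503 differed between genotypes (-0.20, adjusted p = 0.0169 in WT; 0.18, adjusted p = 0.0305 in labelled dKO). The Rb1 response in WT lost its call without WT DMSO 2 (-0.13), WT MI-503 1 (-0.20) or WT MI-503 2 (-0.20), with library size in place of TMM (-0.023), with no filter (-0.12) and with a stricter filter (-0.12). That in labelled dKO lost it without WT MI-503 2 (0.18), labelled dKO DMSO 2 (0.11) or labelled dKO MI-503 2 (0.13), and with only the groups compared (0.16).

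Cdkn1a, the CIP/KIP relative of Cdkn1b and a p53 target, was at 769 and 814 CPM in WT DMSO, 304 and 319 in WT MI-503, 256 and 262 in labelled dKO DMSO, and 369.9 and 368 in labelled dKO MI-503. Cdkn1a fell with MI-503 in WT (-1.34, adjusted p = 1.62e-11) and rose in labelled dKO cells (0.51, adjusted p = 6.32e-07), a difference of 1.85 (adjusted p = 3.62e-10). In labelled dKO DMSO libraries it was lower than in WT (-1.61), opposite to Cdkn1b. E2f8, which encodes a repressor of E2F targets, was at 17.3 and 16.7 CPM in WT DMSO, 163 and 162 in WT MI-503, 50.6 and 52.0 in labelled dKO DMSO, and 169 and 174 in labelled dKO MI-503, and it rose with MI-503 in WT by 3.25 (adjusted p = 1.66e-14). Mnat1 and Cdk7, subunits of the CDK-activating kinase, were lower in labelled dKO in DMSO (-1.07 and -0.85), and with MI-503 in WT Cdk7 fell by 1.31 and Mnat1 by 1.17 on the log2 scale.

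E2F target genes of S phase entry rose more often than they fell with MI-503 and were more often higher than lower in the labelled dKO libraries. Of 33 tested, 18 were higher and 7 lower in labelled dKO in DMSO (median log2 fold change 0.22), and 25 higher and 3 lower in MI-503 (median 0.38). With the drug, 17 rose and 10 fell in WT (median 0.19), and 24 rose and 2 fell in labelled dKO cells (median 0.39). All-gene medians in these contrasts lay between -0.052 and 0.031. Of all genes tested, 29.6% were higher and 35.8% lower for the genotype in DMSO, 26.6% and 28.5% for the genotype in MI-503, 35.2% and 33.7% for MI-503 in WT, and 29.1% and 26.5% for MI-503 in labelled dKO cells. With library size in place of TMM, 24 E2F targets were higher and 5 lower for the genotype in DMSO (median 0.44), and 22 rose and 7 fell with MI-503 in WT (median 0.37). Foxm1, which drives mitotic genes, went with MI-503 from 21.6 and 18.2 to 51.1 and 47.2 CPM in WT (1.30, adjusted p = 1.79e-09) and from 63.3 and 63.2 to 103 and 102 in labelled dKO cells (0.69, adjusted p = 1.32e-06). Tk1, thymidine kinase, rose in WT from 20.8 and 17.7 to 68.7 and 62.7 CPM (1.77, adjusted p = 1.62e-10), and Chaf1b, a chromatin assembly subunit, rose by 1.43 on the same scale. Mcm5, a helicase subunit, was higher in labelled dKO in DMSO (0.97, adjusted p = 2.39e-09). Cdc6, which loads that helicase, was the exception among the genes named: it was lower in labelled dKO in DMSO (-1.25, adjusted p = 1.97e-09) and fell with MI-503 in WT (-1.24, adjusted p = 1.49e-09).

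Genes of quiescence and of the DREAM complex, which represses cell cycle genes in resting cells, were mostly lower in labelled dKO in DMSO and after MI-503 in WT. Of 15 tested, 3 were higher and 11 lower in labelled dKO in DMSO (median log2 fold change -0.56), and with MI-503 2 rose and 10 fell in WT (median -0.34), against 6 and 5 in labelled dKO cells (median -0.051). In MI-503 5 were higher and 7 lower in labelled dKO than in WT (median -0.15). These counts stand beside 29.6% higher and 35.8% lower of all genes for the genotype in DMSO, and 35.2% risen and 33.7% fallen for MI-503 in WT. With library size in place of TMM the medians in those contrasts were -0.33 and -0.16, with 4 risen and 8 fallen in WT. The antiproliferative gene Btg2 was at 348 and 355 CPM in WT DMSO, 125 and 127 in WT MI-503, 64.3 and 63.0 in labelled dKO DMSO, and 80.7 and 80.2 in labelled dKO MI-503. It was lower in labelled dKO in DMSO (-2.46, adjusted p = 4.06e-14) and fell with MI-503 in WT (-1.48, adjusted p = 2.92e-12). Ccng1, a p53 target, was lower in labelled dKO in DMSO (-1.34), Txnip, an inhibitor of thioredoxin, fell with MI-503 in WT (-2.52), and Lin54, the DNA-binding DREAM subunit, fell there too (-0.80). Hes1, a Notch target, was higher in labelled dKO in DMSO (1.37, adjusted p = 2.08e-10).

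**Figure D4:**
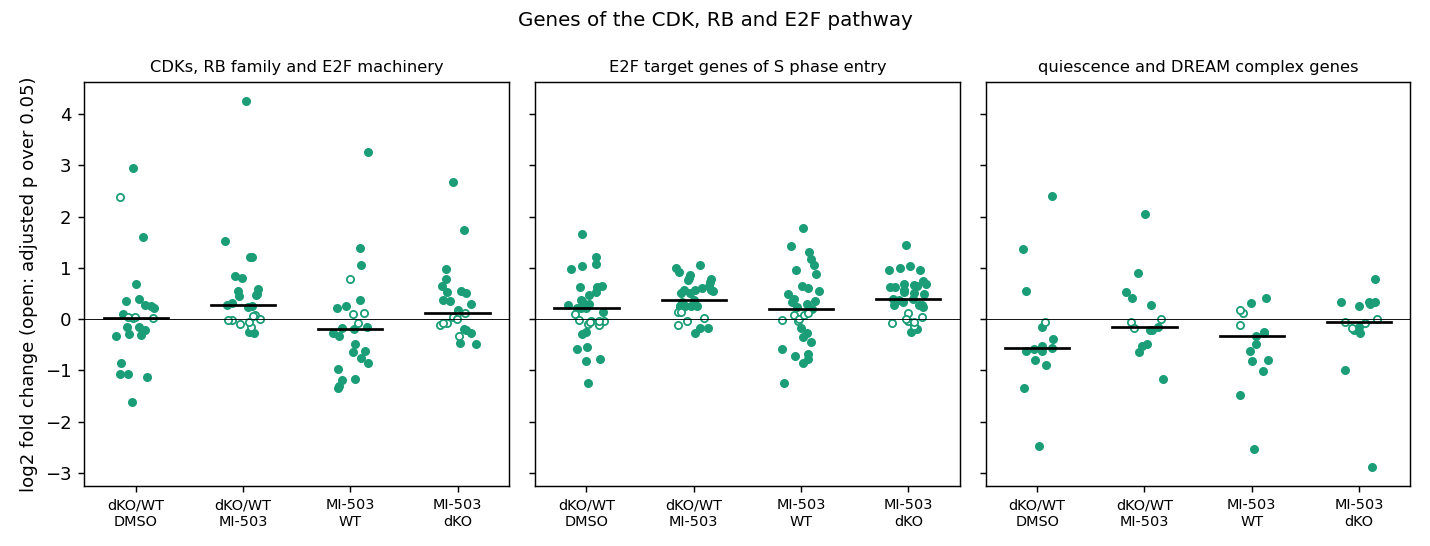
Log2 fold change of each tested gene (points) of 3 lists in 4 contrasts, with the list median as a bar; open points did not pass, and dKO stands for libraries labelled dKO. The median of the E2F targets was above 0 in each contrast shown (0.19 to 0.39), and that of the quiescence genes below 0 (-0.56 to -0.051).

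A list of 22 turnover genes and partners of the CDK inhibitors and D cyclins, among them chaperone and p53 pathway genes, split evenly with MI-503 in WT (10 rose and 10 fell, median log2 fold change 0.027, or 0.20 with library size in place of TMM). In labelled dKO 5 were higher and 11 lower in DMSO (median -0.15, but 10 and 10 with a median of 0.081 with library size in place of TMM), and with MI-503 9 rose and 4 fell (median 0.11). Among all genes tested, 35.2% rose and 33.7% fell with MI-503 in WT, and 29.1% rose and 26.5% fell in labelled dKO cells. For the genotype in DMSO 29.6% were higher and 35.8% lower. Skp2, the ubiquitin ligase subunit that targets p27, was at 11.2 and 11.9 CPM in WT DMSO, 14.8 and 13.9 in WT MI-503, 16.0 and 15.4 in labelled dKO DMSO, and 22.6 and 22.0 in labelled dKO MI-503. It rose with MI-503 in both genotypes (0.31, adjusted p = 0.00242 in WT; 0.50, adjusted p = 4.67e-05 in labelled dKO) and was higher in labelled dKO in DMSO (0.44, adjusted p = 0.000147). Its partner gene Skp1a was lower in labelled dKO in DMSO (-0.97, adjusted p = 1.89e-08), as were Mdm2, the p53 ubiquitin ligase (-1.17), and Hsp90ab1, a chaperone of CDK4 (-1.06). Gsk3b, the kinase that marks cyclin D1 for export and degradation, fell with MI-503 in WT from 244 and 254 to 129 and 129.6 CPM (-0.95, adjusted p = 3.72e-10). Jmjd6 and Cop1, the latter a ubiquitin ligase, fell there as well (-0.99 and -0.98).

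Upstream regulators of the 9 genes fell more often than they rose with MI-503, where 35.2% of all genes rose and 33.7% fell in WT and 29.1% rose and 26.5% fell in labelled dKO cells. Of 38 genes 36 were tested: 9 rose and 22 fell in WT (median log2 fold change -0.62), 10 rose and 18 fell in labelled dKO cells (median -0.26), and 17 were higher and 14 lower in labelled dKO in DMSO (median 0.037, or 0.27 with library size in place of TMM). Men1, the gene of menin, was at 17.0 and 14.5 CPM in WT DMSO, 34.1 and 32.4 in WT MI-503, 29.6 and 32.0 in labelled dKO DMSO, and 48.7 and 42.9 in labelled dKO MI-503. It rose with MI-503 in both genotypes (1.08, adjusted p = 6.67e-08 in WT; 0.57, adjusted p = 4.23e-05 in labelled dKO), while Kmt2a, the gene of its partner, fell in both (-0.60, adjusted p = 7.15e-08; -0.32, adjusted p = 6.07e-05). Bmi1, which encodes a Polycomb protein that represses Cdkn2a, was at 110.2 and 114 CPM in WT DMSO, 30.7 and 31.6 in WT MI-503, 114 and 107 in labelled dKO DMSO, and 58.7 and 62.0 in labelled dKO MI-503. It fell with MI-503 in both genotypes (-1.85, adjusted p = 4.01e-12 in WT; -0.88, adjusted p = 1.13e-08 in labelled dKO) and did not pass between genotypes in DMSO (-0.019, adjusted p = 0.769). Id2, which encodes an inhibitor of basic helix-loop-helix factors, rose with MI-503 in WT (1.75, adjusted p = 1.24e-12). Ets2, whose product can activate Cdkn2a, was lower in labelled dKO in DMSO (-1.13) and fell with MI-503 in WT (-1.06). In DMSO Smad3, a TGF-beta effector gene, was lower in labelled dKO (-1.08), and Tbx3, whose product represses ARF, was higher (1.15).

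A list of 39 genes held the nearest genes on each side of the 9 and, for Cdkn1c, others of its wider imprinted domain (Kcnq1ot1, Nap1l4, Cd81, Tssc4, Ascl2, Igf2 and H19), and 27 were tested. With MI-503 in WT 14 rose and 8 fell (median log2 fold change 0.41), in labelled dKO cells 11 rose and 6 fell (median 0.022), and in DMSO 8 were higher and 12 lower in labelled dKO (median -0.25). With library size in place of TMM the last split turned to 10 higher and 9 lower (median -0.022). Among all genes tested, 35.2% rose and 33.7% fell with MI-503 in WT, and 29.1% rose and 26.5% fell in labelled dKO cells. For the genotype in DMSO 29.6% were higher and 35.8% lower. Bc1, a noncoding RNA gene 15308 bases from Ccnd1, was at 112 and 117 CPM in WT DMSO and 23.7 and 18.1 in labelled dKO DMSO, and was lower there (-2.46, adjusted p = 1.06e-10), in the same direction as Ccnd1. LTO1, whose annotation overlaps Ccnd1, had 13.9 CPM on average in WT MI-503 and 15.4 in WT DMSO and did not pass with MI-503 in WT (-0.14, adjusted p = 0.204), where Ccnd1 rose.

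For each of the 9 genes, the 2 other genes whose log2 CPM ran most like it over the 8 libraries were found among 9746 genes. These correlations are descriptions over 4 groups of 2 libraries, and 22 (for Cdkn2a) to 416 (for Ccnd3) genes had a Pearson r over 0.95. Cdkn1b was most like Hoxa13 (r = 0.998) and Gata3 (r = 0.994), a transcription factor gene of urothelium. Cdkn2c was most like the mitotic kinesin gene Kif18a (r = 0.998) and Fras1 (r = 0.994), and Cdkn2d like Plekhh2 (r = 0.998) and the condensin gene Ncapd2 (r = 0.996). Cdkn1c was most like Cavin3 (r = 0.995) and Tnfsf9 (r = 0.993), Cdkn2a like Sipa1l3 (r = 0.986) and Pax9 (r = 0.980), and Cdkn2b like Dnajb12 (r = 0.989) and Phc1 (r = 0.981). Among the D cyclins, Ccnd1 was most like Slc25a5 (r = 0.998) and St6galnac6 (r = 0.997), Ccnd2 like Plp2 and Car13 (both r = 0.999), and Ccnd3 like Inf2 (r = 0.999) and Zbtb12 (r = 0.998).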

How the data were processed

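PolyA RNA-seq counts of 8 libraries in 4 groups of 2 were used; the other 32 of 40 samples in the series were not analysed here. The authors' deposited table holds whole-number read counts per Ensembl gene, not normalized; the submitters' processing notes name STAR, GRCm38 and mm10 for the series, and no source used here gives the counting program, strand setting or annotation release. One row with no identifier was left out. In R 4.3.3, edgeR 4.0.16 kept 16921 genes (filterByExpr by group, minimum count 10, minimum total 15) and fitted quasi-likelihood models with TMM scaling and 1 mean per group, with 4 residual degrees of freedom and a biological coefficient of variation of 5.14%. F tests were two-sided and adjusted by Benjamini-Hochberg over all genes tested, with a threshold of 0.05. SE was obtained by dividing the size of each log2 fold change by the root of its F statistic. An exact permutation test of 2 against 2 cannot go below p = 0.33.

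The 9 genes and all lists were chosen with earlier results of these data known. Each list's 3 genes with the smallest adjusted p (mean at least 5 CPM) in dKO against WT in DMSO and in MI-503 against DMSO in WT are named, with Cdk4, Cdk6, Rb1, Cdkn1a, Skp2, Men1 and Kmt2a. Genes of like pattern were searched by log2 CPM with a prior count of 2. A pair of cross-group contrasts, used only for the order of levels, were added after values were seen. The fit was repeated with scaling by RLE or by library size alone, with DESeq2 1.42.0, without the filter or with a minimum count of 50, on the compared groups alone, with a block for replicate number, and without each library in turn. The scripts were tested on simulated data in which few genes changed, and only in labelled dKO DMSO. That test does not cover scaling where most genes change, as here.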

Additional observations from a re-analysis of the deposited data

Results flagged for a closer look

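For 6 of the 9 genes the response to MI-503 differed between the genotypes by the test of the difference itself (edgeR, log2 response in labelled dKO cells minus that in WT). The difference was 0.54 for Cdkn1b, whose fall was smaller in labelled dKO cells, and 0.82 for Cdkn1c, whose rise was larger there. It was -0.72 for Cdkn2a and -0.45 for Cdkn2b, which rose in WT and did not pass in labelled dKO cells, and -0.55 for Ccnd2 and -0.31 for Ccnd3, whose rise was smaller in labelled dKO cells. Among all genes tested, 46.8% passed the same test.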

How the results depend on the processing

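Over 16 other settings, 678 of 711 values of the 9 genes kept their direction and their side of the threshold, 16 lost a call, 4 gained one and 13 changed sign; no value that changed sign was past the threshold. The number of the 9 genes with a more negative response in labelled dKO cells, 4, ranged from 2 to 4 with single libraries left out and was 2 without WT DMSO 2, WT MI-503 1, labelled dKO DMSO 2 or labelled dKO MI-503 2, where Cdkn2a and Ccnd3 lost their calls. The sign changes were as follows. For MI-503 in labelled dKO cells, Cdkn2a was -0.21 without labelled dKO DMSO 1 and -0.16 without labelled dKO MI-503 1 (up to 0.41 with single libraries left out), and Cdkn2b was 2e-04 without labelled dKO DMSO 2 and 0.022 without labelled dKO MI-503 2 (down to -0.14). The difference of responses of Ccnd1 was -0.11 with library size only, -0.052 with no filter and -0.048 with a stricter filter. For the genotype in MI-503, Cdkn2b was 0.037 with library size only, 2e-04 without WT MI-503 2 and 0.050 without labelled dKO MI-503 2 (down to -0.12), and Ccnd3 was 0.031 with library size only, 0.0038 without WT MI-503 1 and 0.047 without labelled dKO MI-503 2 (down to -0.13). Library size only moved the median of all genes by 0.23 for the genotype in DMSO, 0.17 for MI-503 in WT and -0.16 for the difference of responses, the contrasts in which the WT DMSO libraries enter, and changed the share of calls that were higher from 45.3% to 61.7% for the genotype in DMSO and from 52.9% to 37.3% for the difference of responses (42.7% with no filter). For other named genes only 66 results were followed over the settings. They were those of each list's genes in the contrast that named them, of the genes named in any case, and of Kmt2c and Kmt2d. Other results, such as those of Lockd, Kcnq1ot1, Faf1, Kri1, LTO1, Bysl and 9330179D12Rik, were not followed. Of the 1049 values, 1 changed sign, Cdk6 for the genotype in DMSO with library size only (0.022). Another 1 gained a call and 42 lost one, all of Cdk4, Cdk6, Rb1 or Kmt2a. The cause of these changes was not tested. No shift by replicate number was shared between groups: the correlation of replicate 2 minus replicate 1 between groups ran from -0.089 to 0.059. These values cannot show whether libraries of the same number were matched. With a replicate block, the members risen and fallen numbered 5 and 4 for the genotype in DMSO and 7 and 1 for MI-503 in WT, and no call of the 9 genes changed. The fit of only the groups compared was not run for the difference of responses, which uses all 4.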
